A study of Mus musculus with 2 samples.

Results

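Collagen chains are the genes of the deposited tables whose symbol reads Col, a number, the letter a and a number. Of 31053 genes, 44 matched, and the 39 with 20 or more unique molecular identifiers (UMIs, one per captured RNA molecule) over both libraries were kept. Col10a1 had 0 UMIs, Col24a1 6, Col19a1 13, Col22a1 15 and Col26a1 16, so these 5 were left out. The cells came from the mammary gland of C57BL/6 mice, sorted as CD24high CD29+, and the 3' ends of their transcripts were counted cell by cell. One library is labelled Fgd5-ko and the other WT. Fgd5 is a guanine nucleotide exchange factor known from endothelium. Age, sex, the number of animals, the deleted part of Fgd5, the cells it was deleted in and the meaning of P4 in both titles are not stated by the labels, and one title writes cko where the group label writes ko.

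Fgd5 went against the labels in basal-like cells, with 4.03 CPM (UMIs of a gene scaled to the same total in every class and library) in the library labelled Fgd5-ko, against 0.729 CPM in the library labelled WT. Endothelial-like barcodes had 115 (Fgd5-ko) and 100 (WT) CPM. A 3' count does not show a deletion elsewhere in a gene, so both libraries are called by their labels throughout, and a label in parentheses after a value names the library it comes from. With 1 library per label there is no replicate check, no test was made, and animal, preparation and genotype cannot be told apart. All intervals are exact 95% intervals and cover counting error only. Barcodes numbered 8798 and UMIs 136697801 in the library labelled Fgd5-ko, against 10735 barcodes and 60566053 UMIs in the library labelled WT. A basal-like cell had a median of 15723 UMIs in the library labelled Fgd5-ko and 4945 in the library labelled WT, and 34 barcodes occurred in both.

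Collagen chains wind in threes into a triple helix, after proline and lysine residues have been hydroxylated in the endoplasmic reticulum. Fibrillar types give tissue its tensile strength, type IV forms the sheet of basement membranes, and FACIT types (fibril-associated collagens with interrupted triple helices) sit on fibrils. In the mammary gland, basal cells lie on the basement membrane that parts the epithelium from the fibroblasts, vessels and nerves of the stroma. A 3' tag is counted once per molecule whatever the transcript's length, so the CPM of different chains are set side by side without a length correction. Capture may still differ between genes, so an order of chains is an order of captured UMIs.

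Cells were clustered without collagen genes and named from other markers. Basal-like cells, all from the authors' table of cells, numbered 6025 (Fgd5-ko) and 6351 (WT). Fibroblast-like barcodes numbered 480 (Fgd5-ko) and 920 (WT), endothelial-like 331 (Fgd5-ko) and 1407 (WT), mural-like (pericytes and vascular smooth muscle) 86 (Fgd5-ko) and 198 (WT), and Schwann-like 23 (Fgd5-ko) and 52 (WT), all outside that table. The sort for CD24 and CD29 may have changed the numbers of the last 4 classes, so these are not compared. The markers of basal cells summed to 7508 (Fgd5-ko) and 9270 (WT) CPM in basal-like cells and to 108 (Fgd5-ko) and 86.2 (WT) CPM in fibroblast-like barcodes, and those of fibroblasts to 281 (Fgd5-ko) and 225 (WT) CPM in the first and to 20699 (Fgd5-ko) and 20757 (WT) CPM in the second class. Clusters that held 25% or more of another class's marker level were left unnamed; with clusters unnamed for other reasons they made up 338 (Fgd5-ko) and 642 (WT) barcodes outside the table.

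Fibroblast-like barcodes gave collagen the most room, 1.74% of all UMIs in the library labelled Fgd5-ko and 2.09% in the library labelled WT. Schwann-like barcodes followed with 0.402% (Fgd5-ko) and 0.584% (WT), and basal-like cells had 0.22% (Fgd5-ko) and 0.2% (WT). Mural-like barcodes gave 0.167% (Fgd5-ko) and 0.23% (WT), and endothelial-like ones 0.103% (Fgd5-ko) and 0.137% (WT). Luminal-like cells, 33 (Fgd5-ko) and 258 (WT) in number, serve below as a comparison for chains made in the stroma, and gave 0.0431% (Fgd5-ko) and 0.0449% (WT). Where labelled WT they held more Col1a1, Col1a2 and Col3a1 than basal-like cells, so they are not taken as a measure of free RNA.

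The chains behind these shares differed between the classes. Type IV chains took 44.1% of the collagen UMIs of basal-like cells labelled Fgd5-ko and 39.7% of those labelled WT, and FACIT chains 37.2% (Fgd5-ko) and 34.5% (WT). Fibrillar chains took 5.57% (Fgd5-ko) and 6.43% (WT) there, against 78.9% (Fgd5-ko) and 83.7% (WT) in fibroblast-like barcodes. Endothelial-like barcodes also had type IV chains in the lead, with 58.5% (Fgd5-ko) and 52.6% (WT), and multiplexin chains at 12.5% (Fgd5-ko) and 14.6% (WT), against 3.2% (Fgd5-ko) and 3.79% (WT) in basal-like cells. Mural-like barcodes were split between fibrillar chains with 31.2% (Fgd5-ko) and 34.8% (WT), type IV with 34.5% (Fgd5-ko) and 32.6% (WT) and type VI with 19.2% (Fgd5-ko) and 19.9% (WT). Schwann-like barcodes gave fibrillar chains 52.6% (Fgd5-ko) and 71% (WT) and type IV chains 25.6% (Fgd5-ko) and 14.3% (WT).

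**Figure D1:**
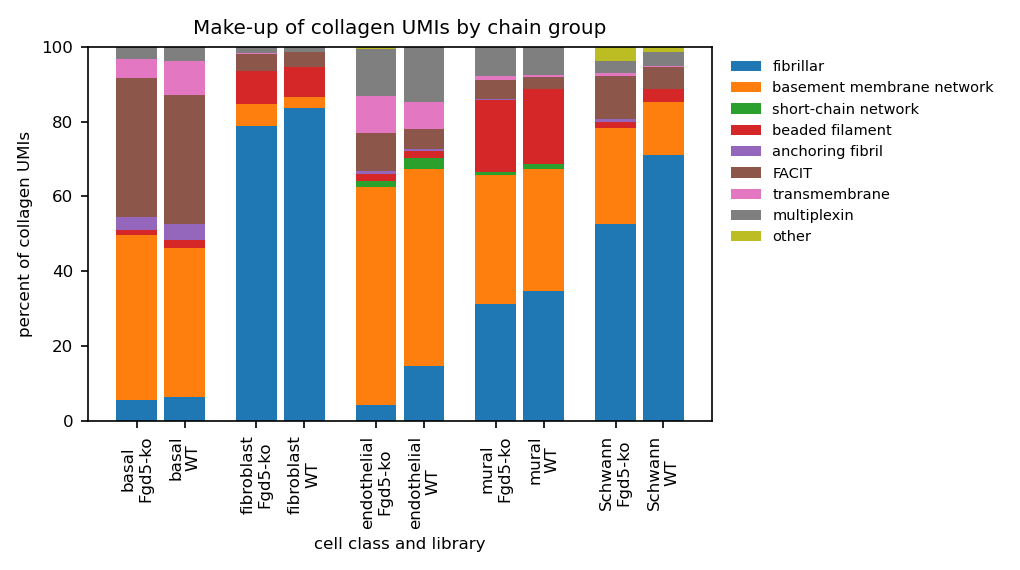
Stacked bars give the percent of collagen UMIs (y axis) in each chain group for each cell class and library (x axis, Fgd5-ko left of WT). Fibrillar chains fill 78.9% (Fgd5-ko) and 83.7% (WT) of the fibroblast-like bars but 5.57% (Fgd5-ko) and 6.43% (WT) of the basal-like bars.

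Each chain with at least 20 UMIs in the 5 classes of a library was assigned to the class where its CPM was highest. Among the cells labelled Fgd5-ko, 17 of 39 chains were highest in fibroblast-like barcodes, where 15.7% of all genes were, and 10 in basal-like cells, where 23.6% of all genes were. Another 7 were highest in the Schwann-like class (23.6% of all genes), 3 in the mural-like class (16.5%) and 2 in the endothelial-like class (20.7%). Among the cells labelled WT, 12 of 35 were highest in fibroblast-like barcodes (20.5% of all genes), 11 in basal-like cells (17.7%), 6 in Schwann-like (27%), 4 in endothelial-like (17.8%) and 2 in mural-like ones (17%). Of the 35 chains assigned in both libraries, 29 had the same class in each, and Col4a2, Col6a4, Col8a1, Col8a2, Col15a1 and Col25a1 did not. The same share over all genes was not computed, so the count is not read as a trait of collagens. Some of these places rest on few UMIs or near ties, as for Col2a1, Col4a4, Col16a1 and Col23a1. The basal-like class led in both for Col2a1, Col4a5, Col4a6, Col7a1, Col9a1, Col9a2, Col9a3, Col16a1 and Col17a1. The Schwann-like class held only 67199 (Fgd5-ko) and 105069 (WT) UMIs, so its places rest on few molecules.

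**Figure D2:**
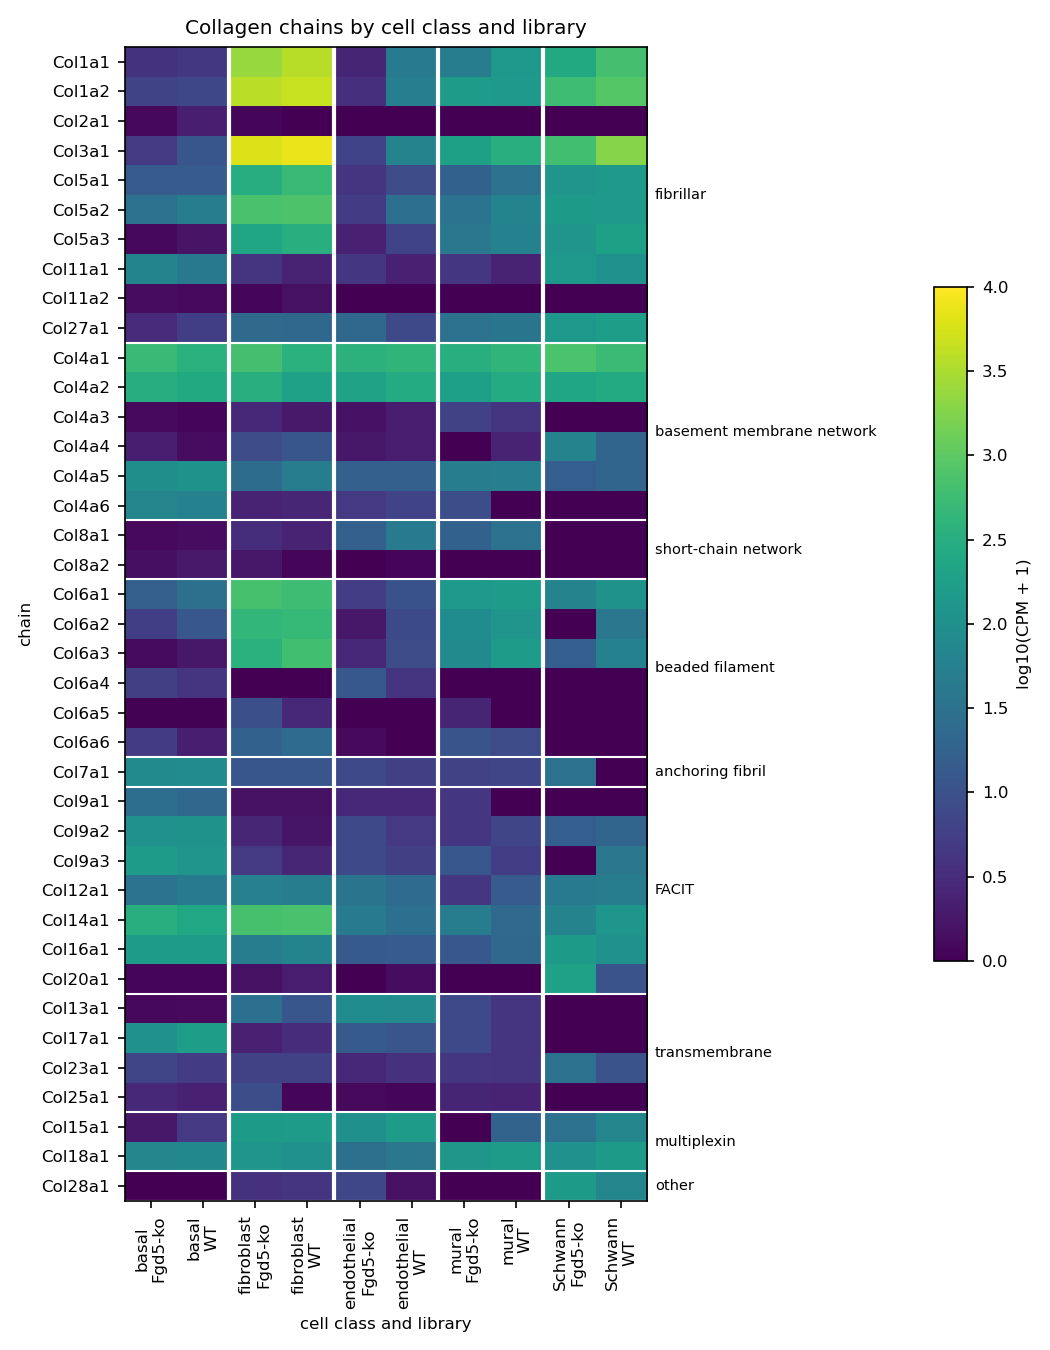
Colour gives the level of the 39 chains (rows, by chain group) in 5 cell classes of each library (columns, Fgd5-ko left of WT) as log10(CPM + 1). Col3a1 is brightest in fibroblast-like barcodes, Col17a1 and the Col9 chains in basal-like cells, and Col4a1 is at 335 CPM or more in every column.

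Fibrillar chains came first in amount. Col3a1, the chain of type III collagen, had 6250 CPM (interval 6186 to 6314) in the library labelled Fgd5-ko, against 7557 CPM (interval 7487 to 7627) in the library labelled WT in fibroblast-like barcodes. Its CPM were 3.73 (Fgd5-ko) and 10.8 (WT) in basal-like cells, 5.47 (Fgd5-ko) and 61.1 (WT) in endothelial-like, 187 (Fgd5-ko) and 336 (WT) in mural-like and 625 (Fgd5-ko) and 1865 (WT) in Schwann-like barcodes. Fibroblast-like barcodes held the most Col3a1 in both libraries, and each class held less of it where labelled Fgd5-ko. After thinning to 2000 UMIs per cell, a Col3a1 UMI was found in 93.9% of 472 (Fgd5-ko) and 98.5% of 884 (WT) fibroblast-like barcodes, and in 0.714% of 6025 (Fgd5-ko) and 2.13% of 6290 (WT) basal-like cells. Without thinning the fibroblast-like shares were 97.9% (Fgd5-ko) and 99.9% (WT), and the basal-like ones 5.91% (Fgd5-ko) and 5.2% (WT). Luminal-like cells, whose median depth was 21146 (Fgd5-ko) and 8390 (WT) UMIs before thinning, gave 0% of 32 (Fgd5-ko) and 2.11% of 237 (WT) cells and 3.39 (Fgd5-ko) and 45.9 (WT) CPM. The share of 0 has an interval of 0 to 10.9%. The basal-like shares lie within the intervals of the luminal-like ones, but the interval from 32 cells is wide. Luminal-like cells labelled WT also held more Col3a1 than basal-like ones. Free RNA and low expression in basal-like cells therefore cannot be told apart here.

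The bases before the Col3a1 start are shown beside those of Col17a1, because these chains stand at opposite ends of the range, one in the stroma and one in basal cells. Both are from RefSeq on GRCm38.p6, in a table that matched 32 of the 39 chains, and each is the 250 bases that end at the base before the start. The Col3a1 stretch is chr1:45311288-45311537 on the plus strand and the Col17a1 stretch chr19:47692043-47692292 on the minus strand. Capitals mark any of 4 motifs on either strand, the TATA box (TATAAA), the CCAAT box, the GC box (GGGCGG) and the AP-1 site (TGANTCA).
Col3a1: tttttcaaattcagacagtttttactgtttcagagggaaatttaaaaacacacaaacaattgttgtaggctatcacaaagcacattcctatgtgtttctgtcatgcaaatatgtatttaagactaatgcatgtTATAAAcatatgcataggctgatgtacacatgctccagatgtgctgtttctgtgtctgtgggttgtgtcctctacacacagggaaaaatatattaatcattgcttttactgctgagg
Col17a1: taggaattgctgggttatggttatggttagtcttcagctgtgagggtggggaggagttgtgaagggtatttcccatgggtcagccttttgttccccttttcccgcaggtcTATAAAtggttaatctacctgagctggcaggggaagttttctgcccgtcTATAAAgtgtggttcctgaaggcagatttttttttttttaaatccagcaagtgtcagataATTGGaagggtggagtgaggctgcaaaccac
The TATA letters begin 117 bases before the Col3a1 start, and 140 and 91 bases before the Col17a1 start; the CCAAT letters lie on the other strand 31 bases before the Col17a1 start. Over all 32851 windows of this length, 12.4% held the TATA box letters, 33.8% the CCAAT box, 32.7% the GC box and 6.75% the AP-1 site. Of the 35 windows of collagen chains, 11.4% held the TATA box letters, 37.1% the CCAAT box, 62.9% the GC box and 2.86% the AP-1 site. A match of letters shows no bound factor.

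Type I collagen, the main fibrillar collagen of skin and bone, is made of the Col1a1 and Col1a2 chains. Col1a2 had 3819 CPM (interval 3769 to 3869) in the library labelled Fgd5-ko, against 4656 CPM (interval 4601 to 4712) in the library labelled WT in fibroblast-like barcodes, and Col1a1 had 2386 (Fgd5-ko) and 3661 (WT) CPM. The ratio of Col1a1 to Col1a2 UMIs in these barcodes was 0.625 (Fgd5-ko, interval 0.612 to 0.638) and 0.786 (WT, interval 0.772 to 0.801), so Col1a2 gave more UMIs. Capture may differ between the genes, so the ratio does not show which RNA was in excess. In mural-like barcodes the ratio was 0.3 (Fgd5-ko, interval 0.193 to 0.455) and 0.969 (WT, interval 0.72 to 1.3). Of Col1a1, mural-like barcodes had 48.8 (Fgd5-ko) and 136 (WT) CPM, Schwann-like 268 (Fgd5-ko) and 657 (WT) CPM and endothelial-like 1.64 (Fgd5-ko) and 41.2 (WT) CPM. Of Col1a2, they had 163 (Fgd5-ko) and 141 (WT) CPM, 565 (Fgd5-ko) and 876 (WT) CPM and 2.46 (Fgd5-ko) and 49.5 (WT) CPM in the same order of classes. Basal-like cells had 2.82 (Fgd5-ko) and 3.48 (WT) CPM of Col1a1 and 5.69 (Fgd5-ko) and 6.45 (WT) CPM of Col1a2. Luminal-like cells had 0 (Fgd5-ko) and 36.2 (WT) CPM and 1.13 (Fgd5-ko) and 52 (WT) CPM of these chains, more than basal-like cells where labelled WT. Whether basal-like cells express either chain was not tested. The 0 UMIs of Col1a1 in luminal-like cells labelled Fgd5-ko allow up to 3.39 CPM (3 counts).

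Type V chains regulate the width of type I fibrils. Fibroblast-like barcodes had 721 (Fgd5-ko) and 758 (WT) CPM of Col5a2, 308 (Fgd5-ko) and 522 (WT) CPM of Col5a1 and 228 (Fgd5-ko) and 324 (WT) CPM of Col5a3. Basal-like cells had 30.9 (Fgd5-ko) and 48.1 (WT) CPM of Col5a2 and 13.1 (Fgd5-ko) and 13.4 (WT) CPM of Col5a1, above the 6.79 (Fgd5-ko) and 10 (WT) and the 1.13 (Fgd5-ko) and 2.51 (WT) CPM of luminal-like cells. Col5a3 was at 0.222 (Fgd5-ko) and 0.645 (WT) CPM in basal-like cells. The basal-like class thus held the first pair of type V chains with almost none of the third, while the fibroblast-like class held all of them. In mural-like barcodes Col5a2 had 32.5 (Fgd5-ko) and 63.1 (WT) CPM, Col5a1 16.3 (Fgd5-ko) and 30.8 (WT) CPM and Col5a3 39.1 (Fgd5-ko) and 55.7 (WT) CPM. Schwann-like barcodes had 149 (Fgd5-ko) and 143 (WT), 119 (Fgd5-ko) and 143 (WT) and 119 (Fgd5-ko) and 190 (WT) CPM of them, and endothelial-like ones 4.1 (Fgd5-ko) and 28.1 (WT), 3.01 (Fgd5-ko) and 7.31 (WT) and 1.37 (Fgd5-ko) and 5.27 (WT) CPM. The Col5a1 to Col5a2 ratio was 0.423 (Fgd5-ko, interval 0.397 to 0.451) and 0.279 (WT, interval 0.252 to 0.309) in basal-like cells and 0.427 (Fgd5-ko, interval 0.404 to 0.451) and 0.689 (WT, interval 0.658 to 0.722) in fibroblast-like barcodes.

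Types XI and II, best known from cartilage, were placed differently. Col11a1 had 63.5 CPM (interval 62 to 65.1) in the library labelled Fgd5-ko, against 39.8 CPM (interval 37.8 to 41.9) in the library labelled WT in basal-like cells, and 3.2 (Fgd5-ko) and 1.53 (WT) CPM in fibroblast-like barcodes. Schwann-like barcodes had 134 (Fgd5-ko) and 105 (WT) CPM of it from 9 (Fgd5-ko) and 11 (WT) UMIs. Its partner Col11a2 was at 0.377 (Fgd5-ko) and 0.252 (WT) CPM in basal-like cells. Col2a1 had 21 (Fgd5-ko) and 42 (WT) UMIs in basal-like cells, or 0.203 (Fgd5-ko) and 1.18 (WT) CPM, and at most 1 UMI of a library in each of the other 4 classes. Col27a1, a fibrillar chain known from cartilage too, was highest in Schwann-like barcodes with 134 (Fgd5-ko) and 171 (WT) CPM, followed by mural-like with 30.9 (Fgd5-ko) and 35.2 (WT) CPM and fibroblast-like ones with 23.4 (Fgd5-ko) and 21.5 (WT) CPM. Endothelial-like barcodes had 21 (Fgd5-ko) and 6.63 (WT) CPM and basal-like cells 2.15 (Fgd5-ko) and 4.43 (WT) CPM of it.

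Type IV chains were found in every class. Col4a1 had 499 CPM (interval 495 to 503) in the library labelled Fgd5-ko, against 364 CPM (interval 358 to 370) in the library labelled WT in basal-like cells. It had 652 (Fgd5-ko) and 358 (WT) CPM in fibroblast-like, 376 (Fgd5-ko) and 408 (WT) CPM in endothelial-like, 335 (Fgd5-ko) and 411 (WT) CPM in mural-like and 729 (Fgd5-ko) and 523 (WT) CPM in Schwann-like barcodes, and luminal-like cells were lowest with 62.2 (Fgd5-ko) and 25.8 (WT) CPM. Col4a2, its partner in the heterotrimer, gave 311 (Fgd5-ko) and 264 (WT) CPM in basal-like, 338 (Fgd5-ko) and 194 (WT) in fibroblast-like, 203 (Fgd5-ko) and 287 (WT) in endothelial-like, 181 (Fgd5-ko) and 283 (WT) in mural-like and 223 (Fgd5-ko) and 276 (WT) CPM in Schwann-like cells. Both chains put the 5 classes in a different order in each library.

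Col4a1 and Col4a2 lie head to head on chromosome 8, with RefSeq starts 21 bases apart on GRCm38.p6. Their UMI ratio was 1.6 (Fgd5-ko, interval 1.58 to 1.63) and 1.38 (WT, interval 1.34 to 1.42) in basal-like cells. It was 1.93 (Fgd5-ko) and 1.84 (WT) in fibroblast-like, 1.85 (Fgd5-ko) and 1.42 (WT) in endothelial-like and 1.86 (Fgd5-ko) and 1.45 (WT) in mural-like barcodes. Schwann-like barcodes gave 3.27 (Fgd5-ko, interval 1.8 to 6.27) and 1.9 (WT, interval 1.19 to 3.08). Col4a1 gave more UMIs than Col4a2 in each of the 5 classes of both libraries.

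Col4a5 and Col4a6 form the other type IV trimer of epithelial and smooth muscle basement membranes. Basal-like cells had 95.9 (Fgd5-ko) and 110 (WT) CPM of Col4a5 and 64.7 (Fgd5-ko) and 55.9 (WT) CPM of Col4a6. The next class for Col4a5 was the mural-like one with 47.2 (Fgd5-ko) and 51.3 (WT) CPM, which had 5 (Fgd5-ko) and 0 (WT) UMIs of Col4a6. Fibroblast-like barcodes had 25.3 (Fgd5-ko) and 47.7 (WT) CPM of Col4a5 and 1.52 (Fgd5-ko) and 1.7 (WT) CPM of Col4a6. Luminal-like cells, the other epithelial class, had 32.8 (Fgd5-ko) and 39.8 (WT) CPM and 33.9 (Fgd5-ko) and 24 (WT) CPM of these chains. The Col4a5 to Col4a6 ratio was 1.48 (Fgd5-ko, interval 1.44 to 1.53) and 1.97 (WT, interval 1.86 to 2.08) in basal-like cells, against 16.7 (Fgd5-ko, interval 8.55 to 37.2) and 28 (WT, interval 15 to 59) in fibroblast-like barcodes, and the intervals of these classes do not overlap in either library.

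This pair also lies head to head, on chromosome X with 1343 bases between the RefSeq starts. The 250 bases before each start are shown because the ratio of the chains parts basal-like from fibroblast-like cells. Col4a5 is at chrX:141475169-141475418 on the plus strand and Col4a6 at chrX:141474077-141474326 on the minus strand (RefSeq, GRCm38.p6), with the same motifs in capitals.
Col4a5: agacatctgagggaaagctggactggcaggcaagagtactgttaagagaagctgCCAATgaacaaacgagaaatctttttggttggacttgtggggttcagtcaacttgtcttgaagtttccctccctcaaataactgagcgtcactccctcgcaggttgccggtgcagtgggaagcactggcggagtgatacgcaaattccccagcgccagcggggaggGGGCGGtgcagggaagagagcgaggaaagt
Col4a6: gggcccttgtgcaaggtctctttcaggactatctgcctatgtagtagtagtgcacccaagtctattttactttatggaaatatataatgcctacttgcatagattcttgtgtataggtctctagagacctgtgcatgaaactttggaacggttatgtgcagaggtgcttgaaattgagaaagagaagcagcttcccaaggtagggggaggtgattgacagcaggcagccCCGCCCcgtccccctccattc
The capitals are the CCAAT box letters 196 bases and the GC box letters 30 bases before the Col4a5 start, and the GC box letters on the other strand 21 bases before the Col4a6 start. Neither window held the TATA box letters.

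Col4a3 and Col4a4, the partners of Col4a5 in kidney, were scarce. Col4a3 stayed between 0 and 4.88 CPM in the 5 classes. Col4a4 had 1.19 (Fgd5-ko) and 0.365 (WT) CPM in basal-like cells and 7.24 (Fgd5-ko) and 10.7 (WT) CPM in fibroblast-like barcodes. Endothelial-like barcodes had 0.82 (Fgd5-ko) and 1.02 (WT) CPM and mural-like ones 0 (Fgd5-ko) and 1.47 (WT) CPM. Its highest level, 59.5 (Fgd5-ko) and 19 (WT) CPM in Schwann-like barcodes, came from 4 (Fgd5-ko) and 2 (WT) UMIs.

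Chains that anchor epithelium to its basement membrane were basal. Col17a1, the transmembrane chain of hemidesmosomes, had 104 CPM (interval 102 to 106) in the library labelled Fgd5-ko, against 174 CPM (interval 170 to 178) in the library labelled WT in basal-like cells. It had 1.35 (Fgd5-ko) and 2.21 (WT) CPM in fibroblast-like, 12.6 (Fgd5-ko) and 10.5 (WT) in endothelial-like and 6.51 (Fgd5-ko) and 2.93 (WT) CPM in mural-like barcodes, and 0 UMIs in Schwann-like ones of both libraries. At 2000 UMIs per cell, 17.7% of 6025 (Fgd5-ko) and 29.3% of 6290 (WT) basal-like cells had a Col17a1 UMI, against 3.12% of 32 (Fgd5-ko) and 5.91% of 237 (WT) luminal-like cells. Without thinning the basal-like shares were 74.9% (Fgd5-ko) and 57.2% (WT), so the order of the libraries turned. Col7a1, the anchoring fibril chain, had 78.7 (Fgd5-ko) and 84.1 (WT) CPM in basal-like cells, against 10.8 (Fgd5-ko) and 10.7 (WT) CPM in fibroblast-like barcodes and 5.66 (Fgd5-ko) and 6.45 (WT) CPM in luminal-like cells.

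Among FACIT chains, type IX was basal and type XIV was shared. Basal-like cells had 160 (Fgd5-ko) and 119 (WT) CPM of Col9a3, 106 (Fgd5-ko) and 108 (WT) CPM of Col9a2 and 26.9 (Fgd5-ko) and 19.9 (WT) CPM of Col9a1. Fibroblast-like barcodes had 3.71 (Fgd5-ko) and 1.7 (WT), 1.68 (Fgd5-ko) and 0.681 (WT), and 0.505 (Fgd5-ko) and 0.511 (WT) CPM of the same chains. Type IX is best known from cartilage, where it coats type II fibrils, whose chain Col2a1 was at the low level given above. Col16a1, a chain found beside several kinds of fibril, had 163 (Fgd5-ko) and 159 (WT) CPM in basal-like cells, 149 (Fgd5-ko) and 105 (WT) CPM in Schwann-like and 49.2 (Fgd5-ko) and 63.7 (WT) CPM in fibroblast-like barcodes. Endothelial-like barcodes, with 12.6 (Fgd5-ko) and 13.4 (WT) CPM, and mural-like ones, with 11.4 (Fgd5-ko) and 20.5 (WT) CPM, held the least of it.

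Col14a1, a chain bound to the surface of type I fibrils, was with Col4a1 and Col4a2 one of the 3 most abundant chains of basal-like cells in both libraries. It had 331 CPM (interval 327 to 334) in the library labelled Fgd5-ko, against 239 CPM (interval 234 to 244) in the library labelled WT there. Fibroblast-like barcodes had 696 (Fgd5-ko) and 699 (WT) CPM, endothelial-like 41.8 (Fgd5-ko) and 27.7 (WT) CPM, mural-like 48.8 (Fgd5-ko) and 22 (WT) CPM and Schwann-like 59.5 (Fgd5-ko) and 124 (WT) CPM. A Col14a1 UMI was found in 44.8% of 6025 (Fgd5-ko) and 34.5% of 6290 (WT) basal-like cells at 2000 UMIs per cell, against 0% of 32 (Fgd5-ko) and 4.22% of 237 (WT) luminal-like cells. The basal-like shares without thinning were 91.8% (Fgd5-ko) and 63.2% (WT). Col12a1, a relative of Col14a1, lay between 32.1 and 54.2 CPM in basal-like and fibroblast-like cells of both libraries. Col20a1 had 13 UMIs in Schwann-like barcodes labelled Fgd5-ko, or 193 CPM (interval 103 to 331), and 1 UMI in those labelled WT, or 9.52 CPM (interval 0.241 to 53). It was at 1.02 CPM or below in the other 4 classes.

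Type VI chains form beaded filaments around stromal cells. Fibroblast-like barcodes had 682 (Fgd5-ko) and 568 (WT) CPM of Col6a1, 445 (Fgd5-ko) and 470 (WT) CPM of Col6a2 and 361 (Fgd5-ko) and 615 (WT) CPM of Col6a3. Mural-like barcodes had 143 (Fgd5-ko) and 161 (WT), 86.2 (Fgd5-ko) and 123 (WT), and 79.7 (Fgd5-ko) and 164 (WT) CPM of the same chains, and were the next class for each. Schwann-like barcodes had 59.5 (Fgd5-ko) and 114 (WT), 0 (Fgd5-ko) and 38.1 (WT), and 14.9 (Fgd5-ko) and 57.1 (WT) CPM of them, and endothelial-like ones 4.37 (Fgd5-ko) and 9.02 (WT), 0.82 (Fgd5-ko) and 6.8 (WT), and 1.91 (Fgd5-ko) and 7.14 (WT) CPM. In basal-like cells Col6a1 reached 15.3 (Fgd5-ko) and 28.8 (WT) CPM, Col6a2 4.48 (Fgd5-ko) and 11.4 (WT) CPM and Col6a3 0.29 (Fgd5-ko) and 0.841 (WT) CPM. In luminal-like cells the values were 0 (Fgd5-ko) and 5.02 (WT), 0 (Fgd5-ko) and 4.3 (WT), and 13.6 (Fgd5-ko) and 13.6 (WT) CPM.

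These chains join into one monomer, so their ratio was followed. Col6a3 to Col6a1 gave 0.019 (Fgd5-ko, interval 0.0128 to 0.0272) and 0.0292 (WT, interval 0.0196 to 0.0419) in basal-like cells. The ratio was 0.528 (Fgd5-ko, interval 0.501 to 0.557) and 1.08 (WT, interval 1.03 to 1.13) in fibroblast-like, and 0.557 (Fgd5-ko, interval 0.384 to 0.798) and 1.02 (WT, interval 0.776 to 1.34) in mural-like barcodes. Basal-like cells thus held Col6a1 with almost no Col6a3, in both libraries. Col6a4, Col6a5 and Col6a6, alternatives to the Col6a3 chain, stayed at or below 24.3 CPM in each of the 5 classes. The highest was Col6a6 in fibroblast-like barcodes with 16.7 (Fgd5-ko) and 24.3 (WT) CPM, which had 9.76 (Fgd5-ko) and 7.33 (WT) CPM in mural-like barcodes, 4.08 (Fgd5-ko) and 1.18 (WT) CPM in basal-like cells and 0.273 (Fgd5-ko) and 0 (WT) CPM in endothelial-like barcodes. Col6a5 had 8.42 (Fgd5-ko) and 1.87 (WT) CPM in fibroblast-like barcodes and 0.058 (Fgd5-ko) and 0.0561 (WT) CPM in basal-like cells. Col6a4 had 11.8 (Fgd5-ko) and 3.06 (WT) CPM in endothelial-like barcodes and 4.74 (Fgd5-ko) and 3.2 (WT) CPM in basal-like cells, and 0 UMIs in the other 3 classes.

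The remaining chains include those of vessels and nerve. Col15a1 and Col18a1 are multiplexins of basement membranes, and a fragment of the second is endostatin. Col15a1 had 149 (Fgd5-ko) and 161 (WT) CPM in fibroblast-like and 99.5 (Fgd5-ko) and 161 (WT) CPM in endothelial-like barcodes, 29.8 (Fgd5-ko) and 66.6 (WT) CPM in Schwann-like and 0 (Fgd5-ko) and 17.6 (WT) CPM in mural-like ones, and 0.813 (Fgd5-ko) and 3.59 (WT) CPM in basal-like cells. Col18a1 had 127 (Fgd5-ko) and 103 (WT) CPM in fibroblast-like, 130 (Fgd5-ko) and 154 (WT) in mural-like, 104 (Fgd5-ko) and 152 (WT) in Schwann-like, 69.8 (Fgd5-ko) and 72.2 (WT) in basal-like and 29 (Fgd5-ko) and 37.9 (WT) CPM in endothelial-like cells. Col13a1, a transmembrane chain, had 87.2 CPM (interval 77.9 to 97.3) in the library labelled Fgd5-ko, against 85.1 CPM (interval 77.8 to 92.8) in the library labelled WT in endothelial-like barcodes, 28.3 (Fgd5-ko) and 10.9 (WT) CPM in fibroblast-like, 6.51 (Fgd5-ko) and 2.93 (WT) CPM in mural-like and 0 in Schwann-like ones, and 0.203 (Fgd5-ko) and 0.28 (WT) CPM in basal-like cells. Col8a1, a network chain of vessels and cornea, had 15.9 (Fgd5-ko) and 41.7 (WT) CPM in endothelial-like and 16.3 (Fgd5-ko) and 30.8 (WT) CPM in mural-like barcodes, 2.36 (Fgd5-ko) and 1.53 (WT) CPM in fibroblast-like ones, 0 in Schwann-like ones and 0.242 (Fgd5-ko) and 0.337 (WT) CPM in basal-like cells. Luminal-like cells had 61.1 (Fgd5-ko) and 29.7 (WT) CPM of it, from 54 (Fgd5-ko) and 83 (WT) UMIs, and its partner Col8a2 was at 0.898 CPM or below in the 5 classes.

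Col28a1, known in mouse from peripheral nerve, had 149 CPM (interval 71.4 to 274) in the library labelled Fgd5-ko, against 66.6 CPM (interval 26.8 to 137) in the library labelled WT in Schwann-like barcodes, from 10 (Fgd5-ko) and 7 (WT) UMIs. It had 0 UMIs in basal-like cells of both libraries, which allows up to 0.029 (Fgd5-ko) and 0.0841 (WT) CPM. The Schwann-like class held all 8 of its markers. Fibroblast markers summed to 179 (Fgd5-ko) and 904 (WT) CPM in these barcodes, with Pdgfra at 0 in both libraries and Dcn at 104 (Fgd5-ko) and 780 (WT) CPM. Col3a1 and Col1a1 moved with that sum between the libraries, and its part in their levels was not tested. Col23a1, a transmembrane chain, had 5.76 (Fgd5-ko) and 4.1 (WT) CPM in basal-like cells and 29.8 (Fgd5-ko) and 9.52 (WT) CPM in Schwann-like barcodes, from 2 (Fgd5-ko) and 1 (WT) UMIs in that class.

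Chains also varied within a class, among clusters with at least 20 barcodes of a library. Fibroblast-like barcodes formed clusters led by Mmp3 and Scg3, with 188 (Fgd5-ko) and 220 (WT) barcodes, Inmt and Angptl1, with 69 (Fgd5-ko) and 60 (WT), and Ifi205 and Smpd3, with 14 (Fgd5-ko) and 252 (WT). A cluster led by Mrgprg and Cxcl13 held 208 (Fgd5-ko) and 1 (WT) barcodes, and one led by Krtdap and Akr1c18 1 (Fgd5-ko) and 387 (WT). A cluster of 1 library may be that library and not a kind of cell. In the Mmp3 cluster Col3a1 reached 11846 (Fgd5-ko) and 17378 (WT) CPM, Col4a1 1238 (Fgd5-ko) and 1085 (WT) CPM and Col18a1 303 (Fgd5-ko) and 389 (WT) CPM. In the Mrgprg cluster labelled Fgd5-ko these chains had 1995, 141 and 8.21 CPM, and in the Krtdap cluster labelled WT 3117, 55.9 and 6.99 CPM. Col14a1 ran the other way, with 372 (Fgd5-ko) and 237 (WT) CPM in the Mmp3 cluster, 994 CPM in the Mrgprg cluster and 943 CPM in the Krtdap cluster. Col15a1 had 337 (Fgd5-ko) and 570 (WT) CPM in the Mmp3 cluster, 2.14 CPM in the Mrgprg cluster and 4.41 CPM in the Krtdap cluster. The fibroblast marker sum was 20074 (Fgd5-ko) and 20947 (WT) CPM in the Mmp3 cluster, 20204 CPM in the Mrgprg cluster and 20040 CPM in the Krtdap cluster.

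Endothelial-like clusters differed in single chains. Col13a1 had 300 (Fgd5-ko) and 317 (WT) CPM in the cluster led by Esm1 and 428 CPM in one led by Rbp7 and Thrsp with 75 barcodes labelled Fgd5-ko, against 0 to 13.5 CPM in the others. Col8a1 had 301 (Fgd5-ko) and 270 (WT) CPM in the cluster led by Cytl1 and Gkn3, and 7.61 CPM or less in the others. Col4a1 reached 776 (Fgd5-ko) and 988 (WT) CPM in the cluster led by Car4 and Gpihbp1, against 112 (Fgd5-ko) and 114 (WT) CPM in the one led by Sele. Col28a1 had 41.8 (Fgd5-ko) and 5.7 (WT) CPM in the Car4 cluster, from 22 (Fgd5-ko) and 3 (WT) UMIs, and 0 in the other endothelial-like clusters of this size. Col12a1 had 101 (Fgd5-ko) and 175 (WT) CPM and Col27a1 63.9 (Fgd5-ko) and 37.5 (WT) CPM in the cluster led by Ccl20 and Marco, whose basal markers summed to 575 (Fgd5-ko) and 802 (WT) CPM. Basal-like cells had 2.15 (Fgd5-ko) and 4.43 (WT) CPM of Col27a1, and the part of basal RNA in this cluster was not tested.

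Mural-like barcodes formed one cluster led by H2-M9 and Higd1b and another led by Map3k7cl and Pln. In the Higd1b cluster Col3a1 reached 456 (Fgd5-ko) and 802 (WT) CPM and Col6a1 311 (Fgd5-ko) and 346 (WT) CPM. In the Map3k7cl cluster Col3a1 had 13.4 (Fgd5-ko) and 73.4 (WT) CPM and Col6a1 34.8 (Fgd5-ko) and 57.3 (WT) CPM. Col4a5 had 67 (Fgd5-ko) and 71.1 (WT) CPM in the Map3k7cl cluster, against 16.6 (Fgd5-ko) and 16.3 (WT) CPM in the Higd1b cluster, and Col8a1 had 24.1 (Fgd5-ko) and 45.9 (WT) CPM, against 4.14 (Fgd5-ko) and 4.07 (WT) CPM. Fibroblast markers summed to 1305 (Fgd5-ko) and 293 (WT) CPM in the Higd1b cluster and to 56.3 (Fgd5-ko) and 45.9 (WT) CPM in the Map3k7cl cluster. Between the libraries, Col3a1 of the Higd1b cluster ran opposite to those markers.

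**Figure D3:**
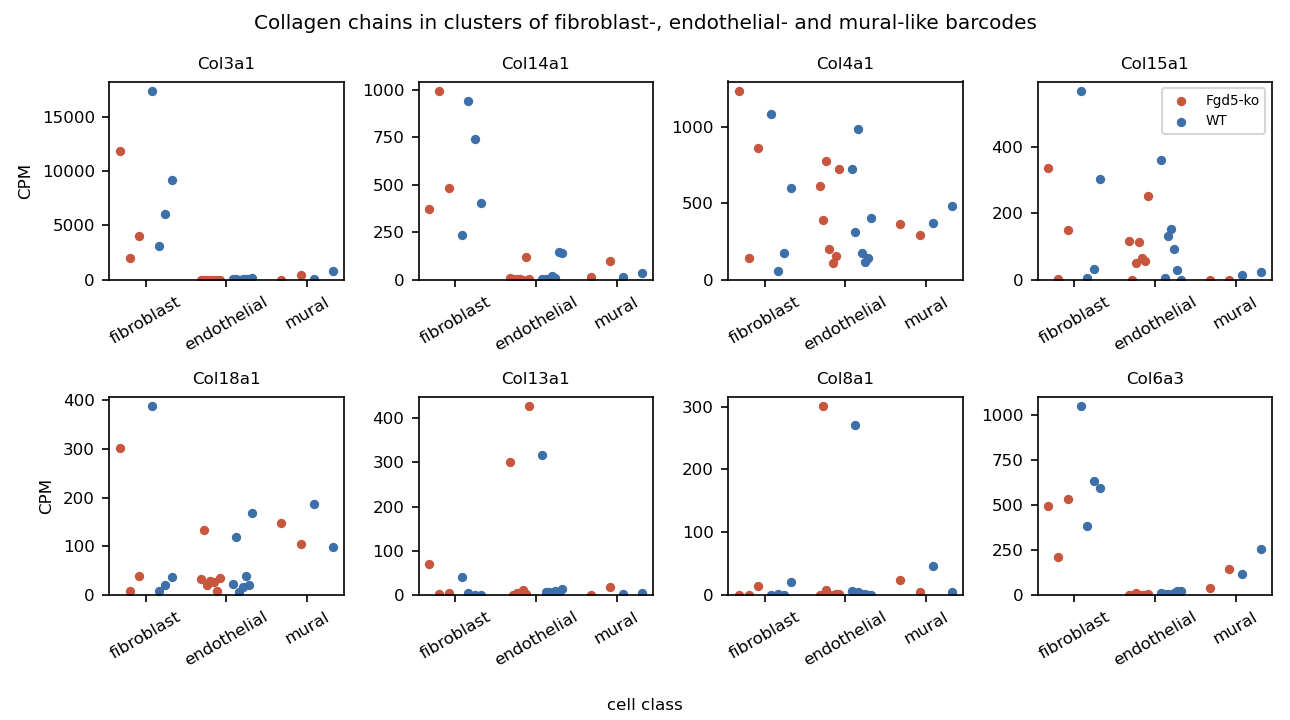
Each point is the CPM (y axis) of a chain in 1 cluster of at least 20 barcodes of a library, by cell class (x axis, Fgd5-ko left of WT). Col8a1 is high in 1 endothelial-like cluster of each library, and Col3a1 spans 1995 to 17378 CPM among fibroblast-like clusters.

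Basal-like cells were clustered on their own, which gave 7 clusters of at least 50 cells in the library labelled Fgd5-ko and 5 in the library labelled WT. Of the chains with at least 200 UMIs, 6 of 25 spread 4-fold or more between the highest and the lowest cluster in the library labelled Fgd5-ko, and 14 of 20 in the library labelled WT. The share of all genes with such a spread was not computed. The libraries also differ in depth and in the number and size of clusters, so these counts are not compared. Among cells labelled Fgd5-ko, the cluster led by Ankrd1 and Slpi (869 cells) was lowest for Col4a1, with 177 CPM against a median of 600 over clusters. It was lowest too for Col9a1 (2.17 against 27.7 CPM) and Col11a1 (7.95 against 80.4 CPM), and highest for Col12a1 (87.6 against 25.2 CPM). Among cells labelled WT, the cluster led by Lbhd2 (613 cells) was highest for Col4a1, with 1104 CPM against a median of 245, and for Col9a2 (189 against 96.3 CPM). The cluster led by BC100530 and Cck (109 cells) was lowest for both main type IV chains, at 39.8 CPM each. It was lowest too for Col4a5, Col7a1, Col9a1, Col9a2, Col9a3, Col11a1, Col14a1, Col16a1 and Col18a1. Most of the 4-fold spreads labelled WT thus have their low end in this small cluster. Col17a1 was evener, from 90.5 to 142 CPM among clusters labelled Fgd5-ko and from 153 to 200 CPM among those labelled WT. These Col17a1 ranges do not overlap, but with finer clusters (resolution 1) they do, at 74.1 to 139 CPM labelled Fgd5-ko and 125 to 210 CPM labelled WT.

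**Figure D4:**
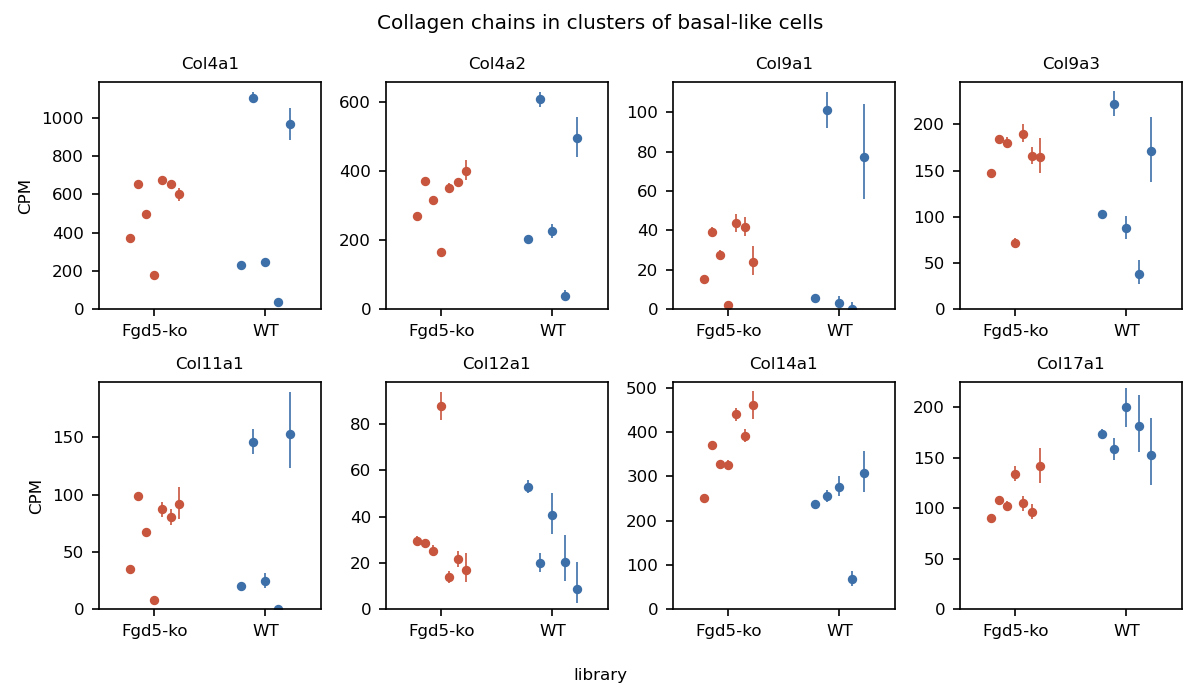
Points give the CPM (y axis) of a chain in each cluster of basal-like cells with exact 95% Poisson intervals, by library (x axis, Fgd5-ko left of WT). Col17a1 clusters lie between 90.5 and 142 CPM labelled Fgd5-ko and between 153 and 200 CPM labelled WT, while Col4a1 spans 177 to 673 CPM labelled Fgd5-ko and 39.8 to 1104 CPM labelled WT.

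The libraries were compared chain by chain, and a chain with at least 20 UMIs in a class was counted where its CPM differed by 2-fold or more. In basal-like cells 2 of 37 chains were higher where labelled Fgd5-ko, against 12.2% of all genes, and 7 were lower, against 5.2%. The median log2 ratio (Fgd5-ko over WT) was -0.05 for the chains and 0.24 for all 15050 genes. The higher ones were Col6a6, with 4.08 (Fgd5-ko) and 1.18 (WT) CPM and a log2 ratio of 1.79 (interval 1.33 to 2.29), and Col4a4, with 1.71 (interval 0.88 to 2.66). The lower ones were Col2a1 (-2.54), Col15a1 (-2.14), Col3a1 (-1.54), Col5a3 (-1.54), Col6a3 (-1.54), Col6a2 (-1.35) and Col27a1 (-1.05). Among cells of 4000 to 12000 UMIs the counts were 1 higher and 4 lower, where Col6a6 (0.46), Col6a2 (-0.80) and Col27a1 (-0.34) were within 2-fold and Col5a3 had under 20 UMIs. Leaving out cells that had 2 or more UMIs of another class's markers kept 1744 (Fgd5-ko) and 4493 (WT) cells. This limit is in raw UMIs, so deep cells reach it more easily, and the libraries differ in depth. There, 4 were lower, Col6a6 (0.71) and Col27a1 (-0.99) were within 2-fold, and Col2a1 and Col5a3 had under 20 UMIs. With basal-like barcodes from outside the authors' table added, Col3a1 (-0.62), Col5a3 (-0.76) and Col6a3 (-0.59) were within 2-fold, which left 4 lower. None of these 9 passed 11.4 CPM in either library. Of the lower ones, Col3a1, Col5a3, Col6a2 and Col6a3 were highest in fibroblast-like barcodes. Fibroblast markers summed to 281 (Fgd5-ko) and 225 (WT) CPM in basal-like cells, with Dcn at 224 (Fgd5-ko) and 158 (WT) and Lum at 1.19 (Fgd5-ko) and 2.13 (WT) CPM, and their part in these ratios was not tested.

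The abundant basal chains differed by less than 2-fold, and some turned among cells of 4000 to 12000 UMIs. This range kept 1571 of 6025 basal-like cells labelled Fgd5-ko and 4442 of 6351 labelled WT. Col17a1 was lower where labelled Fgd5-ko, by a log2 ratio of -0.74 (interval -0.78 to -0.69) in all cells and -0.57 (interval -0.65 to -0.49) among cells of 4000 to 12000 UMIs. Col14a1 was higher, by 0.47 (interval 0.43 to 0.50) and 0.29 (interval 0.23 to 0.35) at matched depth. Col4a1 was higher by 0.45 (interval 0.43 to 0.48) in all cells, but its log2 ratio was -0.46 (interval -0.52 to -0.41) at matched depth, with 267 (Fgd5-ko) and 368 (WT) CPM. Col4a2 (0.24 and -0.38), Col9a1 (0.43 and -0.83) and Col11a1 (0.67 and -0.42) changed sign in the same way, so no direction is given for these 4 chains. The Ankrd1 and Slpi cluster labelled Fgd5-ko, lowest for all 4, had a median of 10094 UMIs. Of the other clusters labelled Fgd5-ko, only that led by Fbxl22 (10903 UMIs) had its median in the range. The part of cell make-up in these signs was not tested.

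In fibroblast-like barcodes 5 of 30 chains were higher where labelled Fgd5-ko (6.84% of all genes) and 0 were lower (5.39% of all genes), with a median log2 ratio of -0.04 against 0.01 for all 11560 genes. Col25a1, a transmembrane chain, had 48 UMIs in the library labelled Fgd5-ko and 1 in the library labelled WT, or 8.09 (Fgd5-ko) and 0.17 (WT) CPM, a log2 ratio of 5.57 (interval 3.02 to 10.90). In the Mmp3 cluster alone it had 20.7 (Fgd5-ko) and 0 (WT) CPM. Col6a5 and Col13a1 had log2 ratios of 2.17 (interval 1.21 to 3.26) and 1.38 (interval 0.95 to 1.82). Within the Mmp3 cluster Col13a1 was at 0.84, within 2-fold. Col9a3 (1.12) and Col11a1 (1.06) had intervals that hold 0. With clusters held by both libraries weighted equally, Col13a1 was at 0.90 and Col11a1 at -0.07, and 1 chain was higher and 1 lower.

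The fibrillar chains Col3a1 (-0.27), Col1a2 (-0.29) and Col1a1 (-0.62) stayed within 2-fold over the fibroblast-like class. Within the Inmt cluster, which both libraries hold, Col1a1 had 2113 (Fgd5-ko) and 4991 (WT) CPM (log2 ratio -1.24) and Col3a1 4032 (Fgd5-ko) and 9225 (WT) CPM (-1.19). Within the Mmp3 cluster, also held by both, the log2 ratios were -0.71 for Col1a1 and -0.55 for Col3a1. Col4a1 was higher by 0.87 in the class, by 1.19 at matched depth, and by 0.19 and 0.53 in the Mmp3 and Inmt clusters.

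**Figure D5:**
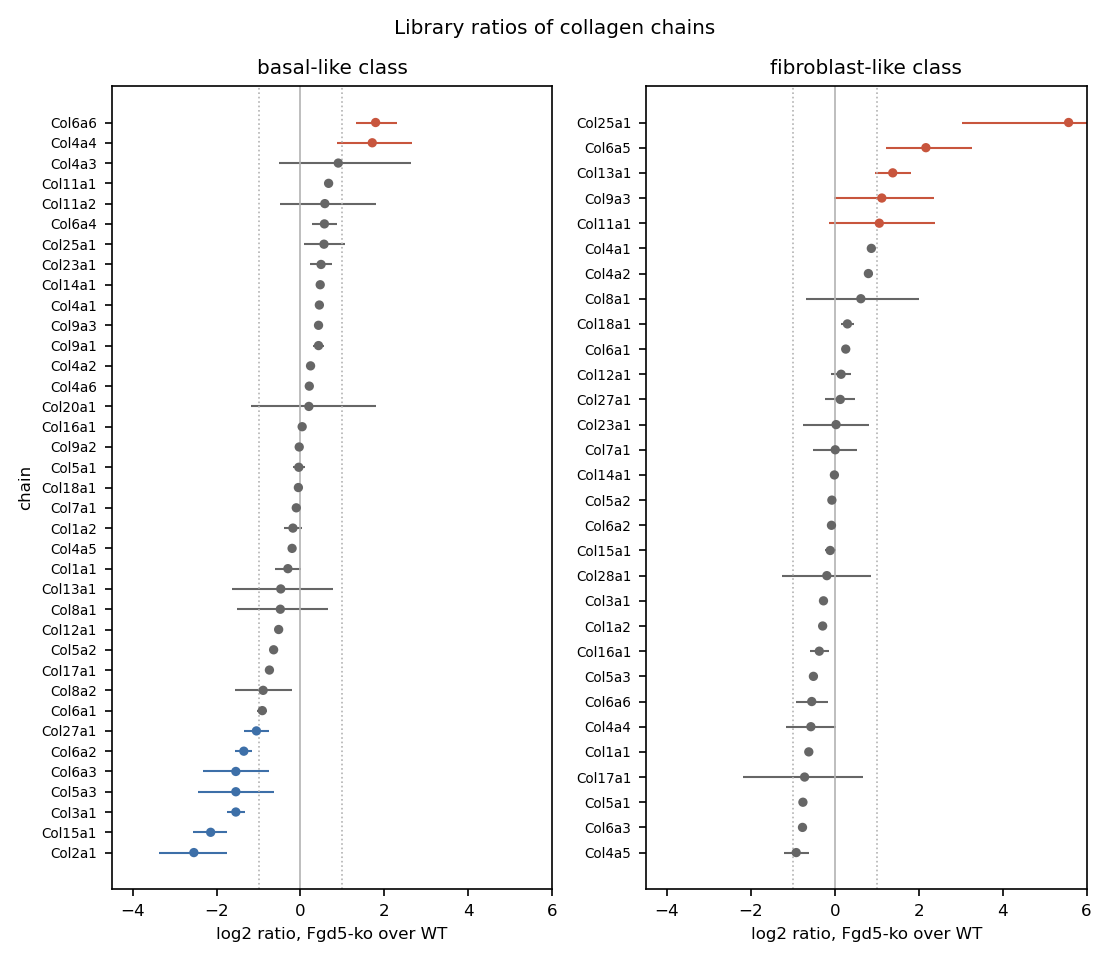
Points give the log2 ratio Fgd5-ko over WT (x axis) with exact 95% intervals, drawn up to the axis limit, for each chain with at least 20 UMIs in basal-like (left) and fibroblast-like (right) cells, and dotted lines mark 2-fold. Of 37 basal chains 2 lie right and 7 left of the dotted lines, and of 30 fibroblast chains 5 and 0 do.

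In endothelial-like barcodes 4 of 29 chains were higher (8.49% of all genes) and 10 lower (4.63%), with a median of -0.39 against 0.15 for all 11485 genes. The lower ones were Col1a1 (-4.65), Col1a2 (-4.33), Col3a1 (-3.48), Col5a1 (-1.28), Col5a2 (-2.78), Col5a3 (-1.95), Col6a1 (-1.04), Col6a2 (-3.05), Col6a3 (-1.90) and Col8a1 (-1.39). All but Col8a1 were highest in fibroblast-like barcodes, and fibroblast markers summed to 45.4 (Fgd5-ko) and 242 (WT) CPM in endothelial-like barcodes and to 32.8 (Fgd5-ko) and 266 (WT) CPM in luminal-like cells. In the Car4 cluster, where those markers summed to 32.3 (Fgd5-ko) and 28.5 (WT) CPM, Col3a1 had 15.2 (Fgd5-ko) and 17.1 (WT) CPM and Col1a1 0 (Fgd5-ko) and 3.8 (WT) CPM. Col3a1 had 10.7 (Fgd5-ko) and 86.1 (WT) CPM in the Esm1 cluster and 11.6 (Fgd5-ko) and 25.9 (WT) in the Gkn3 cluster. It had 4.56 (Fgd5-ko) and 62.4 (WT) CPM in one led by Glycam1 and 3.36 (Fgd5-ko) and 94.4 (WT) in the Ccl20 cluster. In this order the markers summed to 32.1, 231, 9.12 and 46.3 CPM labelled Fgd5-ko and 145, 374, 170 and 503 CPM labelled WT. The part of the markers in the 9 class ratios was not tested. The higher ones were Col28a1 (3.56), Col6a4 (1.94), Col27a1 (1.67) and Col11a1 (1.27), at 21 CPM or below. At matched depth 0 chains were higher and Col27a1 was at -2.59, from 2 (Fgd5-ko) and 25 (WT) UMIs. Col5a2 (-0.61) and Col6a1 (-0.32) were within 2-fold there. Chains within 2-fold over the class were lower there, namely Col17a1 (-3.07), Col16a1 (-2.07), Col12a1 (-1.66), Col4a5 (-1.47) and Col14a1 (-1.33). The set of lower chains thus changed with depth. Leaving out cells that had 2 or more UMIs of another class's markers kept 160 (Fgd5-ko) and 1150 (WT) barcodes. Col1a2 (-0.47), Col3a1 (-0.73) and Col27a1 (0.04) were within 2-fold among them, and 0 chains were higher. The 3 lower ones were then Col5a2 (-1.52), Col8a1 (-1.25) and Col16a1 (-1.67), of which Col16a1 was at -0.10 over the class. Col4a5 (-0.73), Col12a1 (-0.35) and Col14a1 (-0.07) were within 2-fold, and the other chains named had under 20 UMIs.

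The endothelial-like clusters were also filled unequally, with 24 (Fgd5-ko) and 441 (WT) barcodes in the Esm1 cluster and 28 (Fgd5-ko) and 325 (WT) in the Cytl1 and Gkn3 cluster. Col8a1 was lower over the class (-1.39) but had 301 (Fgd5-ko) and 270 (WT) CPM within the Gkn3 cluster (0.16). At matched depth its log2 ratio was 0.58. In mural-like barcodes Col14a1 was higher (1.15) and Col1a1 (-1.48) and Col6a3 (-1.04) lower, 1 and 2 of 17 chains, against 9.17% and 5.01% of all genes. Fibroblast markers summed to 547 (Fgd5-ko) and 135 (WT) CPM in mural-like barcodes, higher like Col14a1 where labelled Fgd5-ko and opposite to Col1a1 and Col6a3, and their part in these ratios was not tested. At matched depth Col6a3 was at -0.90, within 2-fold. In Schwann-like barcodes 0 of 12 chains were higher (8.39% of all genes) and 2 lower (13.2%), Col3a1 (-1.58) and Col1a1 (-1.29).

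Genes that modify, export, trim and cross-link collagen were read from a list of 34, and collagen receptors from a list of 10. In basal-like cells 0 of 29 genes of the first list with enough UMIs were higher and 2 lower by 2-fold, and 0 of 8 receptors were higher and 2 lower, against 12.2% of all genes higher and 5.2% lower. In fibroblast-like barcodes 2 of 32 and 0 of 7 were higher, and 2 and 0 were lower, against 6.84% of all genes higher and 5.39% lower. At matched depth 1 gene of both lists was lower in basal-like cells, and under TMM scaling 7 were. Serpinh1, the chaperone of procollagen, had 490 (Fgd5-ko) and 1270 (WT) CPM in fibroblast-like barcodes (log2 ratio -1.37) and 255 (Fgd5-ko) and 347 (WT) CPM in basal-like cells (-0.45). It was also lower in endothelial-like (-1.03), mural-like (-0.74) and Schwann-like barcodes (-2.02). P4hb, a subunit of prolyl 4-hydroxylase and a disulfide isomerase, ran the other way, with 165 (Fgd5-ko) and 93.6 (WT) CPM in basal-like cells (0.82) and 275 (Fgd5-ko) and 183 (WT) CPM in fibroblast-like ones (0.59).

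Other genes of both lists had mixed signs. P4ha2, a catalytic subunit of prolyl 4-hydroxylase, had 28.3 (Fgd5-ko) and 56.5 (WT) CPM in fibroblast-like barcodes, and P3h3, of the prolyl 3-hydroxylase family, 112 (Fgd5-ko) and 61.1 (WT) CPM (0.87). Bmp1, which trims procollagen, had 29.9 (Fgd5-ko) and 42.6 (WT) CPM in basal-like cells (-0.51). Cd44, a receptor of hyaluronan that also binds collagen, had 46.5 (Fgd5-ko) and 27.3 (WT) CPM in basal-like cells (0.77).

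These genes parted the classes too. Ddr1, a collagen receptor kinase, had 49.7 (Fgd5-ko) and 53.8 (WT) CPM in basal-like cells and 6.74 (Fgd5-ko) and 6.3 (WT) CPM in fibroblast-like barcodes. Ddr2, its relative, had 2.43 (Fgd5-ko) and 1.82 (WT) CPM in basal-like cells and 305 (Fgd5-ko) and 468 (WT) CPM in fibroblast-like ones. Loxl1, a cross-linking enzyme, had 0.252 (Fgd5-ko) and 0.785 (WT) CPM in basal-like and 382 (Fgd5-ko) and 537 (WT) CPM in fibroblast-like cells, while Pxdn, which cross-links type IV collagen, had 30.2 (Fgd5-ko) and 26.1 (WT) CPM and 60.6 (Fgd5-ko) and 74.7 (WT) CPM. Pcolce2, an enhancer of procollagen trimming, had 0.435 (Fgd5-ko) and 0.785 (WT) CPM in basal-like cells and 860 (Fgd5-ko) and 665 (WT) CPM in fibroblast-like barcodes. Itga1, an integrin chain that binds type IV collagen, had 205 (Fgd5-ko) and 238 (WT) CPM in mural-like, 157 (Fgd5-ko) and 155 (WT) CPM in endothelial-like and 37.5 (Fgd5-ko) and 33.1 (WT) CPM in basal-like cells.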

How the data were processed

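RNA of single mammary gland cells was measured in 2 libraries with the 10x Genomics 3' kit, V3 chemistry, per the labels' protocols. The authors deposited raw UMI counts for every gene and barcode; per the file headers, a Cell Ranger program of version 3.1.0 wrote them. Per the submitters' processing notes, Cell Ranger, Seurat 3.0 and the mm9 build were used, with roles and annotation not given in the sources used here. The authors also deposited a table of cells with t-SNE coordinates (a score with no unit), which served only as the list of cells. UMI counting removes amplification copies.

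Basal-like cells were taken from that list. The other 4 classes were barcodes outside it that had 1000 or more UMIs, 500 or more genes and no more than 15% mitochondrial UMIs. After scaling to 10000 counts, 2000 variable genes without collagens, 30 principal components and 15 neighbours gave Leiden clusters (resolution 1, basal-like cells alone 0.5). A cluster took the name of its highest marker list where that led by 1 or more on the log2 scale, at least 3 markers were in 10% of cells, other classes had no more markers than its own among its top 10 genes, and no marker sum of another class reached 25% of that class's level. This rule was set after the data were seen. No doublet caller was run, so doublets may remain. Lymphoid and myeloid clusters were too small or mixed to serve as background. Luminal-like cells were used for comparison instead, which is no clean measure of free RNA.

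UMIs were summed per class and library and scaled to CPM, with exact Poisson intervals, exact conditional intervals for ratios and Clopper-Pearson intervals for shares. With 1 library per group there is no test and no p-value. Cells were thinned to 2000 UMIs for shares. Chains given in full are the 12 of highest summed CPM, the top ones of basal-like cells and those past 2-fold with at least 50 UMIs. Other chains, genes and clusters named were chosen after their values were seen. Members and lists were chosen with earlier results of these data known. Promoter stretches are RefSeq's on GRCm38.p6, which is not the build in the notes, and none of the files' coordinates were used. Clusters were made with scanpy 1.11.5 and leidenalg 0.10.2 and intervals with SciPy 1.17.1 under Python 3.11.15 (pandas 2.3.3, NumPy 2.4.6, matplotlib 3.10.9), and an alternative scaling with edgeR 4.0.16 under R 4.3.3. Only the 2-fold calls and the ratio intervals were tested on simulated data, drawn as basal-like sums with known changes. The clustering, naming, thinning and shares were not simulated. Alternatives changed the scaling, depth range, thresholds, clustering and treatment of mixed barcodes.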

Additional observations from a re-analysis of the deposited data

Results flagged for a closer look

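Col27a1 moved in opposite directions between 2 classes. Its log2 ratio (Fgd5-ko over WT) was 1.67 in endothelial-like barcodes, with 21 CPM from 77 UMIs in the library labelled Fgd5-ko and 6.63 CPM from 39 UMIs in the library labelled WT, and -1.05 in basal-like cells, with 2.15 CPM labelled Fgd5-ko and 4.43 CPM labelled WT. With 1 library per label the difference was not tested. Among cells of 4000 to 12000 UMIs the endothelial-like value was -2.59 (interval -5.71 to -0.58), from 2 (Fgd5-ko) and 25 (WT) UMIs. The basal-like one was -0.34. The Col27a1 UMIs of the endothelial-like class lay mostly in the cluster led by Ccl20 and Marco, 76 of 77 labelled Fgd5-ko and 25 of 39 labelled WT, where Col27a1 had 63.9 CPM labelled Fgd5-ko and 37.5 CPM labelled WT. Within that cluster its log2 ratio was 0.77 (interval 0.10 to 1.49). The median depth there was 20583.5 (Fgd5-ko) and 4698 (WT) UMIs, of which only the first lies above the range of 4000 to 12000.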

How the results depend on the processing

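No paired analysis was possible because each label has 1 library, and for the same reason no replicate could be left out. Of 267 recomputed counts, ratios of partner chains and shares, 212 stayed within 1.5 times or within the counting error of the reported value. Library ratios of single chains are not among them, and a count can hold while its chains change. In endothelial-like barcodes at matched depth, 4 of 8 called chains with a value kept their call. All values stayed within these limits at clustering resolution 0.5 (29 of 29), with mixed clusters kept (23 of 23), without the Schwann-like class (5 of 5) and at basal resolutions 0.25 and 1 (2 of 2 each). Keeping mixed clusters, leaving out the Schwann-like class and weighting clusters equally were chosen after seeing the data. The cause of the changes below was not tested. TMM and median-ratio scaling moved the median of all genes by 0.17 and 0.19 on the log2 scale in basal-like, 0.01 and -0.02 in fibroblast-like, 0.17 and 0.17 in endothelial-like, 0.11 and 0.15 in mural-like and 0.11 and 0.06 in Schwann-like cells. Under each, chains lower in mural-like barcodes went to 5 (reported 2), and processing and receptor genes lower in basal-like cells to 7 (reported 4). Among cells of 4000 to 12000 UMIs, basal-like chains were 1 higher and 4 lower (2 and 7), endothelial-like 0 higher (4), Schwann-like 1 higher and 0 lower (0 and 2). There, processing and receptor genes were 1 lower in basal-like (4) and 0 higher in fibroblast-like cells (2), and chains at 10 CPM or more numbered 8 in endothelial-like barcodes labelled Fgd5-ko (13) and 11 in Schwann-like ones labelled WT (23). The Col4a1 to Col4a2 ratio labelled Fgd5-ko was 1.3 in basal-like (1.6) and 2.05 in fibroblast-like cells (1.93), and Col6a3 to Col6a1 was 0.0114 in basal-like cells (0.019). Col8a1 (0.58, reported -1.39) and Col27a1 (-2.59, reported 1.67) turned in endothelial-like barcodes, Col27a1 from 2 (Fgd5-ko) and 25 (WT) UMIs. With collagens kept in the clustering, 5 basal-like chains were higher (2). At resolution 2, fibroblast-like chains were 10 higher and 1 lower (5 and 0). Without cells that had 2 or more UMIs of another class's markers, chains were 4 lower in basal-like (7), 3 higher in fibroblast-like (5), 0 higher and 3 lower in endothelial-like (4 and 10), and 0 higher and 4 lower in mural-like cells (1 and 2). In that setting 1 processing or receptor gene was higher in fibroblast-like barcodes (2), and 8 chains reached 10 CPM in endothelial-like ones labelled Fgd5-ko (13). Adding basal-like barcodes outside the table left 4 basal-like chains lower (7), and a minimum of 2000 UMIs for barcodes outside it left 1 mural-like chain lower (2). A minimum of 5 UMIs per chain gave 8 higher and 1 lower in fibroblast-like, 5 and 4 in mural-like and 3 and 5 in Schwann-like barcodes, and a minimum of 50 gave 2 higher in fibroblast-like, 2 in endothelial-like and 0 in mural-like ones. At 1.5-fold, basal-like chains were 4 higher and 11 lower, fibroblast-like 8 and 5, with 8 lower in mural-like and 4 in Schwann-like barcodes. With clusters held by both libraries weighted equally, chains were 1 higher and 1 lower in fibroblast-like and 2 higher in endothelial-like barcodes, and Col11a1 in fibroblast-like (-0.07, reported 1.06) and Col8a1 in endothelial-like barcodes (0.12) turned. Shares with a Col17a1 UMI in basal-like cells were 10.6% (Fgd5-ko) and 17.4% (WT) at 1000 UMIs and 74.9% (Fgd5-ko) and 57.2% (WT) unthinned, against 17.7% (Fgd5-ko) and 29.3% (WT) at 2000, so the order turns without thinning. For Col3a1 in fibroblast-like barcodes they were 83.1% (Fgd5-ko) and 93.4% (WT) at 1000 UMIs and 97.9% (Fgd5-ko) and 99.9% (WT) unthinned, against 93.9% (Fgd5-ko) and 98.5% (WT). Small UMI totals left 12 chains with 20 or more UMIs in Schwann-like barcodes and 17 in mural-like ones.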
